A study of Mus musculus with 36 samples.

Results

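The genes described here are 10 imprinted genes that act on growth: H19, Igf2, Dlk1, Meg3, Peg3, Plagl1, Cdkn1c, Grb10, Mest and Igf2r. They were taken by name, as imprinted genes of fetal growth that are shut down after birth, in a choice made with earlier results of these data known, and all 10 were found among the 21889 gene symbols of the table. Their RNAs were measured by RNA-Seq of polyadenylated RNA from whole livers of 36 male C57BL/6 mice (C57BL/6J in the study's methods), untreated and of 1 genotype, with 3 mice at each of 12 ages. The youngest group, Day -2, was taken 2 days before birth, and Day 0 mice were taken right after birth, before suckling; the suckling groups were taken on Days 1, 3 and 5 and on Days 10, 15 and 20, and the later groups, after weaning at 21 days of age, on Days 25 and 30 and on Days 45 and 60. Day 60 stood for the adult. Values are FPKM, fragment counts scaled to transcript length and to the mapped reads of the library, a scale on which levels of different genes can be set side by side. All mice are of an inbred strain, so the reads of the maternal and paternal copies are not separated.

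An imprinted gene is expressed mainly from the copy inherited from one parent, under the control of DNA methylation laid down in the egg or sperm. Of the 10 genes, Igf2, Dlk1, Peg3, Plagl1 and Mest are expressed from the paternal copy, and H19, Meg3, Cdkn1c, Grb10 and Igf2r mainly from the maternal copy. Igf2 encodes the fetal insulin-like growth factor, Igf2r the receptor that carries this factor to the lysosome for destruction, Grb10 an adaptor that damps insulin and IGF receptor signalling, and Cdkn1c (p57) an inhibitor of cyclin-dependent kinases. H19 and Meg3 are long noncoding RNAs, Dlk1 is a Delta-like membrane protein of fetal progenitor cells including hepatoblasts, Peg3 and Plagl1 are zinc finger proteins, and Mest is a protein of the alpha/beta hydrolase fold. The fetal liver is also a site of blood formation, and the liver moves from growth to metabolic work in the weeks after birth.

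Several genes lie in pairs or share sequence with neighbours (coordinates in mm9, GENCODE annotation). H19 (chr7:149761434-149764048, minus strand) and Igf2 (chr7:149836673-149852721, minus strand) lie 72.6 kb apart, and Dlk1 (chr12:110691033-110701546, plus strand) and Meg3 (chr12:110779211-110809936, plus strand) lie 77.7 kb apart. Cdkn1c is farther along chromosome 7 (chr7:150644255-150646955, minus strand), and Peg3 lies near the other end of that chromosome (chr7:6656603-6683132, minus strand). Plagl1 is at chr10:12810497-12851500 (plus strand), Grb10 at chr11:11830511-11938686 (minus strand), Mest at chr6:30673547-30698457 (plus strand) and Igf2r at chr17:12875272-12962530 (minus strand). The library kit does not keep the strand, so reads of Igf2 and Igf2as, of Igf2r and Airn, and of Mest and Copg2, which overlap on opposite strands, cannot be told apart where they overlap, and the same holds for Meg3 and Gm17639, which has no row in the table. The highest listed values in any mouse were 2.80 FPKM for Igf2as, 0.690 FPKM for Airn and 8.08 FPKM for Copg2, and the reads of these 3 genes were not separated from the members' reads.

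The transcripts of H19 and Mest also hold microRNAs, and their mature forms are shown because they are further products of these 2 members. The sequences are from RefSeq (GRCm38.p6), with the seed, bases 2 to 8, in capitals, and no pair among the 4 has the same seed.
mmu-miR-675-5p (in H19): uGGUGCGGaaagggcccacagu
mmu-miR-675-3p (in H19): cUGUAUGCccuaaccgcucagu
mmu-miR-335-5p (in Mest): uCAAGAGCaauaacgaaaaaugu
mmu-miR-335-3p (in Mest): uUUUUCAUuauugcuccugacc
Both microRNA genes, Mir675 and Mir335, were listed at 0 FPKM in all 36 mice, as were Mir483 in Igf2 and Mir770 in Meg3. Mature microRNAs carry no poly-A tail, and the libraries were made from polyadenylated RNA, so these zeros say nothing of microRNA levels.

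Promoter sequences from RefSeq (300 bases around a transcript start, GRCm38.p6, another build than that of the gene positions above) were held for 8 of the 10 genes, as 15 promoters; H19 and Cdkn1c had no entry. They were searched on both strands for GGGGCCCC, a core sequence bound by the member Plagl1, and for TGACGTCA, the cAMP response element (CRE); both read the same on either strand and do not overlap each other in the promoters shown. GGGGCCCC was present in 1 of the 15 promoters, that of Peg3, against 1.08% of 32851 mouse promoters. TGACGTCA was present in 2 of the 15, those of Peg3 and of 1 of the 2 Meg3 starts, against 1.79% of all promoters. The 2 promoters with matches are shown, with the matches in capitals, as the member promoters that hold either sequence.
Peg3 promoter (chr7:6730370-6730669, minus strand): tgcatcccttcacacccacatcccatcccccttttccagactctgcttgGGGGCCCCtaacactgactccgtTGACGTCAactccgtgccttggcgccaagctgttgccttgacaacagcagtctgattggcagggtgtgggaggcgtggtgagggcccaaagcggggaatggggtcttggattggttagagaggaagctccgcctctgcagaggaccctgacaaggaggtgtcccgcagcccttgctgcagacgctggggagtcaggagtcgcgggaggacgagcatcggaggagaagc
Meg3 promoter (chr12:109540746-109541045, plus strand): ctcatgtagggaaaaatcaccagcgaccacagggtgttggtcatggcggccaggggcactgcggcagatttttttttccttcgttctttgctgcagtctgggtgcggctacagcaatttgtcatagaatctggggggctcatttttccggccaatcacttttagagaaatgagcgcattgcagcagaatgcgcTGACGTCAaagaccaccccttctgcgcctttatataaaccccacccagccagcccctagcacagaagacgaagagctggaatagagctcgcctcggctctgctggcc
These are matches of letters and were not tested as binding sites. The Plagl1 promoter itself held neither sequence.

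Some libraries stood apart by markers of neighbouring tissue. One Day 0 library (replicate 1) had a summed level of 1286 FPKM over 7 skeletal muscle markers, against at most 86.5 FPKM in the others, and 5 libraries (Day 0 replicate 3, Day 15 replicate 3, Day 20 replicate 2, Day 45 replicate 1 and Day 60 replicate 1) had 4160 to 17853 FPKM over 6 pancreas markers, against at most 1185 FPKM. Hepatocyte markers were present in every group, with a summed mean over 6 markers that was lowest in the fetus (8158 FPKM) and highest on Day 15 (71912 FPKM). From genes with a value in a single library, a rough depth of 76.1 M fragments per library was estimated, so that 1 fragment of Dlk1 is worth about 0.00283 FPKM. By the study's methods the mice of an age came from more than 1 litter, but no source used here ties a mouse to its litter, and p-values measure the spread between these mice.

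H19 had the highest mean of the 10 RNAs at every age from Day -2 to Day 25. It rose from Day -2 to Day 0 and fell mainly around weaning. The step to Day 0, called the step at birth below, also covers the last days before birth, and no group separates these. At Day -2 H19 stood at 1667, 1590 and 1641 FPKM in the 3 mice. At Day 0, its highest age, it stood at 3892, 4102 and 4938 FPKM. Every newborn mouse was above every fetal mouse, and this rise of 1.39 ± 0.28 (SE, n = 3 per age) on the log2(FPKM + 1) scale passed the test (adjusted p = 0.000135, limma). Cell type markers also differed between these groups: the newborn mice had a summed mean of 41404 FPKM over the hepatocyte markers against 8158 FPKM in the fetus, and of 61508 against 134252 FPKM over 7 erythroid markers, and their part in the rise was not tested. H19 then held 1186 to 3464 FPKM in all mice from Day 1 to Day 15, with no step in that span past the threshold. On Day 20 the mice had fallen to 344, 200 and 252 FPKM, on Day 25 to 16.9, 5.89 and 10.6 FPKM, and on Day 30 to 1.35, 3.40 and 1.85 FPKM. Each of these 3 groups lay wholly below the one before it. The fall from Day 20 to Day 25, across weaning, was -4.53 ± 0.28 on the log2(FPKM + 1) scale (adjusted p = 7.83e-13, limma), the fourth largest fall of the 11149 genes tested at that step (rank 4). At Days 45 and 60 the mice were between 0.0889 and 0.696 FPKM, and the Day 60 mean was 0.0111% of the Day 0 mean.

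Igf2 showed no change called with the main settings until Day 10, and then fell at 3 steps in a row. Its level was 248, 231 and 147 FPKM at Day -2 and 237, 204 and 206 FPKM at Day 0. The highest age mean was at Day 1, 427 ± 95.5 FPKM (SD, n = 3), and at Day 10 the mice still stood at 568, 270 and 350 FPKM. None of its steps from Day -2 to Day 10 passed the threshold with those settings. The largest, from Day 0 to Day 1, was 0.96 ± 0.38 (SE) on the log2(FPKM + 1) scale (adjusted p = 0.0532, limma), with every Day 1 mouse above every Day 0 mouse, and it was called without Day 10 replicate 1 (adjusted p = 0.0466), Day 15 replicate 1 (adjusted p = 0.0107) or replicate 3 (adjusted p = 0.0178), or Day 25 replicate 1 (adjusted p = 0.0495). It was also called with the replicate block (adjusted p = 0.0191), with the length trend removed (adjusted p = 0.0286) and with a filter at 5 FPKM (adjusted p = 0.0499). At Day 15 the 3 mice were far apart, at 301, 103 and 48.2 FPKM, and the lowest of them was the library with high pancreas markers (Day 15 replicate 3). At Day 20 all were together at 7.23, 5.62 and 6.36 FPKM. The step from Day 15 to Day 20, -3.97 ± 0.38 on the log2(FPKM + 1) scale (adjusted p = 1.23e-07, limma), was the largest fall of all 11149 genes tested at that step (rank 1). The step from Day 10 to Day 15 was -1.71 ± 0.38 (adjusted p = 0.0024, limma), and became -1.09 without Day 15 replicate 3 (adjusted p = 0.0448) and also without the 6 libraries high in muscle or pancreas markers (adjusted p = 0.0757). From Day 25 on, 11 of the 12 mice were under 0.5 FPKM, and Day 25 replicate 1 was at 1.03 FPKM.

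**Figure D1:**
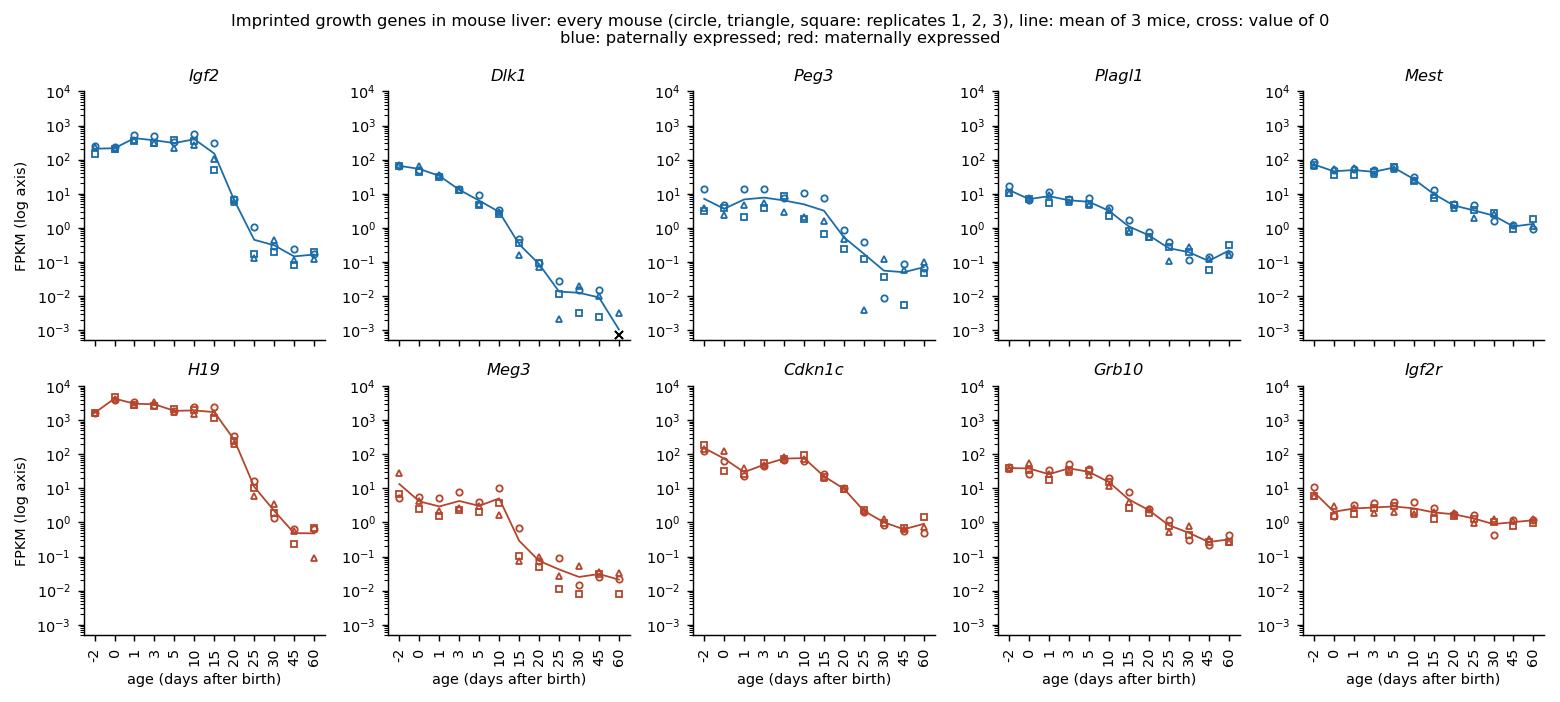
FPKM of each of the 10 genes (log axis) by age in days, with 1 symbol for each of 3 mice, a line through the age means and a cross for a listed value of 0; blue panels are paternally and red panels maternally expressed genes. H19 was at 1186 FPKM or more in every mouse up to Day 15 and Igf2 at 147 FPKM or more up to Day 10, Dlk1 fell at each step from Day 0 to Day 15, and Igf2r stayed between 0.437 and 11.3 FPKM in every mouse.

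Of the second pair, Dlk1 was called at each step from Day 0 to Day 15 and Meg3 mainly at the last of these steps. Dlk1 stood at 63.0, 67.5 and 66.4 FPKM at Day -2 and at 50.2, 67.2 and 42.9 FPKM at Day 0, and then fell at each of 5 steps in a row from Day 0 to Day 15 (adjusted p from 1.00e-08 to 0.00181, limma). The mice were at 34.2, 34.6 and 31.5 FPKM at Day 1, at 13.3, 12.8 and 13 FPKM at Day 3 and at 9.02, 4.99 and 4.79 FPKM at Day 5. The age groups from Day 0 to Day 15 did not overlap one another, and Dlk1 was at 4.46% of its fetal mean at Day 10, when Igf2 was at 92.8% of its own highest mean. Its listed values went on down, from 0.162 to 0.465 FPKM at Day 15 to 0.0707 to 0.0951 FPKM at Day 20. At Day 25 they were 0.00216 to 0.0268 FPKM, and these 3 groups did not overlap. Adding 1 FPKM shrinks such falls to -0.29 and -0.10 on the log2(FPKM + 1) scale, and neither was called. The last called step is thus not the end of the decline. At Day 60 Dlk1 was listed at 0 in 2 mice and at 0.00312 FPKM in the other, close to the worth of 1 fragment.

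Meg3 was below Dlk1 in every mouse up to Day 5. Its levels were 5.32, 27.7 and 7.06 FPKM at Day -2, 1.51 to 7.90 FPKM in the mice from Day 0 to Day 5, and 9.98, 1.64 and 3.63 FPKM at Day 10. It then dropped to 0.697, 0.0745 and 0.101 FPKM at Day 15, below every mouse of every earlier age. The step from Day 10 to Day 15 was -2.02 ± 0.44 (SE) on the log2(FPKM + 1) scale (adjusted p = 0.0021, limma). The fall from Day -2 to Day 0 (-1.19 ± 0.44, adjusted p = 0.0256, limma) rested on the 1 fetal mouse at 27.7 FPKM, and without that mouse it was -0.52 (adjusted p = 0.311). It was also lost without Day 0 replicate 3 (adjusted p = 0.12), without the 6 libraries high in muscle or pancreas markers and with common upper quartile scaling.

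The genes that restrain growth signals did not share 1 course. Cdkn1c was at 127, 142 and 186 FPKM at Day -2, at 63.3, 128 and 33.1 FPKM at Day 0 and at 23.2, 40.7 and 25.6 FPKM at Day 1. On Day 5 the mice had 67.4, 84.7 and 72.5 FPKM, and on Day 10 they had 63.4, 74.1 and 94.0 FPKM. All mice of Days 3, 5 and 10 were above all mice of Day 1, but the steps from Day 1 to Day 3 (0.76 ± 0.28 on the log2(FPKM + 1) scale) and from Day 3 to Day 5 (0.57 ± 0.28) had adjusted p values of 0.0762 and 0.429 (limma). By limma the first of these steps was called without the 6 libraries high in muscle or pancreas markers (adjusted p = 0.0115), with the length trend removed (adjusted p = 0.0475), and without Day 0 replicate 2 (adjusted p = 0.0179), Day 0 replicate 3 (adjusted p = 0.0192) or Day 1 replicate 2 (1.00, adjusted p = 0.0279). The Day 0 group had only 1 library outside those 6, and the fall from Day -2 to Day 0 was -1.20 with all libraries (adjusted p = 0.00067) and -0.23 without them (adjusted p = 0.535), the lone sample being assumed to vary like the other groups. From Day 0 to Day 1 it was -1.13 ± 0.28 with all libraries (adjusted p = 0.00298), -0.65 without Day 0 replicate 2 (adjusted p = 0.0452) and -2.10 without the 6 libraries. From Day 10 Cdkn1c fell at 3 steps in a row, with Day 15 mice at 26.3, 20.4 and 21.3 FPKM, Day 20 mice at 10.1, 9.48 and 9.71 FPKM, and Day 25 mice at 1.99, 2.24 and 2.34 FPKM (adjusted p = 6.72e-05, 0.024 and 5.10e-05, limma). The mice of these 3 ages were close together, and no group overlapped the next. The middle one of these calls was lost without Day 15 replicate 1 (-1.02, adjusted p = 0.173) or replicate 3 (adjusted p = 0.0589), and without Day 20 replicate 2 (adjusted p = 0.101) or replicate 3 (adjusted p = 0.112).

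Grb10 had no called step until Day 5 and then fell. Its age means were 39.5 ± 1.73 FPKM (SD, n = 3) at Day -2, 38.8 ± 11 FPKM at Day 3 and 30.5 ± 6.1 FPKM at Day 5. The mice then stood at 19.5, 11.5 and 15.0 FPKM at Day 10 and at 7.70, 3.86 and 2.64 FPKM at Day 15. Both steps passed the test, at -0.96 ± 0.26 and -1.58 ± 0.26 (SE) on the log2(FPKM + 1) scale (adjusted p = 0.00567 and 0.000113, limma), and the first was lost with common upper quartile scaling (-0.52, adjusted p = 0.227). The later step from Day 20 to Day 25 (-0.86 ± 0.26, adjusted p = 0.0429) was near the threshold and was lost when any of 10 single libraries was left out, among them the 3 of Day 20 (adjusted p from 0.0709 to 0.138) and replicates 2 (adjusted p = 0.198) and 3 (adjusted p = 0.102) of Day 25; for the other 5, of Days -2, 3, 45 and 60, the adjusted p was 0.0501 to 0.0510. The Day 60 mean was 0.316 ± 0.0862 FPKM, 0.800% of the fetal mean.

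Igf2r had the smallest difference of the 10 between Day -2 and Day 60, 1.97 ± 0.25 (SE) on the log2(FPKM + 1) scale (adjusted p = 5.11e-08, limma). It stood at 11.3, 6.15 and 5.90 FPKM at Day -2 and at 1.52, 3.12 and 1.55 FPKM at Day 0, and this fall at birth, -1.51 ± 0.25 (SE) on the log2(FPKM + 1) scale (adjusted p = 1.67e-05, limma), was its only step past the threshold. From Day 0 to Day 20 the mice ranged from 1.26 to 3.97 FPKM, and from Day 25 to Day 60 from 0.437 to 1.71 FPKM. These ranges overlapped, and the Day 60 mean was still 14.9% of the fetal mean, against 0.00159% to 1.81% for the other 9 genes.

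Of the 3 remaining paternally expressed genes, Mest and Plagl1 fell at both steps from Day 5 to Day 15, and Peg3 at no single step. The fetal mice had 82.9, 62.9 and 70.7 FPKM of Mest and the Day 5 mice 59.0, 54.0 and 62.7 FPKM. On Day 10 these were 31.8, 25.7 and 23.2 FPKM, and on Day 15 they were 13.1, 9.16 and 7.37 FPKM. Neighbouring groups did not overlap from Day 5 to Day 20, and the 2 falls from Day 5 to Day 15 were -1.10 ± 0.22 and -1.38 ± 0.22 (SE) on the log2(FPKM + 1) scale (adjusted p = 0.000309 and 6.88e-05, limma). Its fall from Day 15 to Day 20 (-0.95 ± 0.22, adjusted p = 0.0181) was lost without Day 15 replicate 1 (adjusted p = 0.214), Day 20 replicate 2 (adjusted p = 0.121) or Day 20 replicate 3 (adjusted p = 0.0742), and with TPM scaling (adjusted p = 0.0745) and without the 6 libraries named above (adjusted p = 0.0752). Its fall at birth (-0.67 ± 0.22, adjusted p = 0.0132) was lost without Day -2 replicate 1 (adjusted p = 0.0663) or Day 0 replicate 3 (adjusted p = 0.0974), with common upper quartile scaling (-0.40, adjusted p = 0.121) and without the 6 libraries (adjusted p = 0.28). Mest ended at 0.921, 1.13 and 1.86 FPKM at Day 60. Plagl1, which is also a transcription factor of other imprinted genes, stood at 17.2, 10.7 and 10.6 FPKM in the fetal mice, 7.64, 4.82 and 4.94 FPKM on Day 5, and 1.70, 0.772 and 0.823 FPKM on Day 15. It fell at birth (-0.77 ± 0.20, adjusted p = 0.00203) and at both steps from Day 5 to Day 15 (adjusted p = 0.00697 and 0.000847, limma), that from Day 5 to Day 10 being lost with common upper quartile scaling (-0.33, adjusted p = 0.31) and without Day 5 replicate 1 (-0.52, adjusted p = 0.0632) or Day 10 replicate 3 (-0.54, adjusted p = 0.0633), and that at birth without the 6 libraries (-0.65, adjusted p = 0.111).

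Peg3 differed several-fold between mice of most early ages. The fetal mice had 14.2, 3.82 and 3.19 FPKM, and the Day 3 mice 14.1, 5.26 and 3.72 FPKM. On Day 10 the values were 10.8, 2.09 and 1.76 FPKM, and on Day 15 they were 7.32, 1.56 and 0.665 FPKM. Replicate 1 was the highest mouse in 6 of the 7 ages from Day -2 to Day 15. No step of Peg3 between neighbouring ages passed the threshold, the largest being -1.13 ± 0.57 (SE) from Day 15 to Day 20 on the log2(FPKM + 1) scale (adjusted p = 0.555, limma), although all 3 Day 25 mice, at 0.00396 to 0.390 FPKM, were below all mice of Days -2 to 15. Long transcripts in general were highest in the same libraries. Over 1708 genes with a transcript of at least 5000 bases, the median deviation of a library from its age mean ran from -0.36 to 0.29 on the log2(FPKM + 1) scale, and in all 7 ages from Day -2 to Day 15 the mouse with the most Peg3 was also the one with the highest long transcript deviation. The same held for Igf2 in 7 of the 7 ages, for H19, Meg3, Plagl1, Grb10, Mest and Igf2r in 5, for Dlk1 in 3 and for Cdkn1c in 1. With each library's trend with transcript length removed, an alternative added after seeing the data, 3 of the calls against Day 60 differed: Igf2r was gained at Days 0 and 15 and Dlk1 was lost at Day 15.

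**Figure D2:**
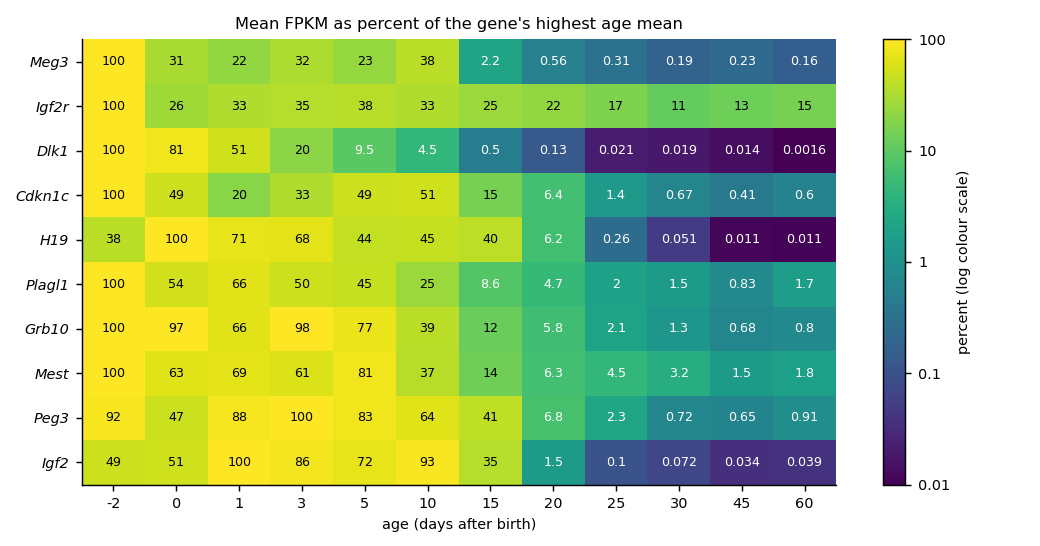
Mean FPKM of each gene at each age as a percent of the mean at that gene's highest age (log colour scale, 3 mice per age, age in days). Igf2 was at 92.8% at Day 10 and 1.5% at Day 20, Dlk1 at 4.46% and 0.131%, and Igf2r never went under 11.5%.

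Set against adult (Day 60) liver, most of the 10 genes were called higher until Day 15 and few after Day 20. Of the 10 genes, 10 were higher at Day -2, when 56.4% of the 11149 genes tested were, and 9 at Day 0, when 43.6% were. All 10 were again higher on Day 1 (53.4%), Day 3 (55.7%), Day 5 (56.9%) and Day 10 (35.3%). Igf2r was the gene not called at Day 0 (0.46 ± 0.25 SE on the log2(FPKM + 1) scale, adjusted p = 0.11, limma). Without the 6 libraries high in muscle or pancreas markers it was called there (0.95, adjusted p = 0.0439) and no longer at Day 10 (adjusted p = 0.0512), and with common upper quartile scaling it was not called at Days 1, 3 and 5 either. Its call was lost at Day 1 without Day 1 replicate 1 (adjusted p = 0.0783) or Day 60 replicate 3 (adjusted p = 0.0534), at Day 3 without Day 3 replicate 1 (adjusted p = 0.0682), and at Day 10 without Day 10 replicate 1 (0.43, adjusted p = 0.207), Day 60 replicate 1 (adjusted p = 0.0516) or Day 60 replicate 3 (adjusted p = 0.0823). The counts then went down to 8 on Day 15 (18.4% of genes tested), 5 on Day 20 (8.93%), 2 on Day 25 (4.18%), 1 on Day 30 (1.77%) and 0 on Day 45 (0.0628%), where limma gave no member an unadjusted p under 0.05 and Dunnett's comparison called 0 as well. Meg3 and Igf2r were not called at Day 15. H19, Igf2, Cdkn1c, Grb10 and Mest were still higher at Day 20, H19 and Mest at Day 25, and H19 alone at Day 30 (1.09 ± 0.28, adjusted p = 0.0205). No gene of the 10 was called lower than Day 60 by limma at any age, while the share of genes tested that was lower was 18.6% at Day -2, 20.3% at Day 0 and 11.7% at Day 1, then 10.3%, 8.5% and 10.6% on Days 3 to 10, and 8.95%, 6.99%, 3.24%, 1.79% and 0.17% on Days 15 to 45.

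The late calls were the least firm, and some were gained under alternatives. Cdkn1c at Day 25 (main adjusted p = 0.0937, limma) was called with a pseudocount of 0.1 FPKM (adjusted p = 0.00654). TPM and common upper quartile scaling (adjusted p = 0.0132 and 0.0429) also called it, as did some fits without 1 library. With that pseudocount Grb10 was gained at Day 25 (adjusted p = 0.0302, limma). Dlk1 and Plagl1 were gained with it at Day 20 (adjusted p = 0.00398 and 0.00694). At Day 15, leaving out replicate 1 of that age took Dlk1, Peg3 and Plagl1 from the call and left 5 genes (adjusted p = 0.178, 0.291 and 0.057 in that order). Dlk1 and Peg3 were each lost without any 1 of the Day 60 libraries (adjusted p from 0.0732 to 0.0896), and Dlk1 also without Day 15 replicate 3 (adjusted p = 0.097). Peg3 at Day 0 was lost without the 6 libraries high in muscle or pancreas markers (adjusted p = 0.148). At Day 25, Mest was lost without Day 25 replicate 1 (adjusted p = 0.114) or replicate 3 (adjusted p = 0.0549) or Day 60 replicate 1 (adjusted p = 0.096) or replicate 2 (adjusted p = 0.0695), and the call of H19 at Day 30 was lost without Day 30 replicate 2 (adjusted p = 0.0858) or Day 60 replicate 2 (adjusted p = 0.167). The median over the 10 genes at Day -2 was 4.97 on the log2(FPKM + 1) scale, against 0.56 over all genes tested, and 4.51 against 0.15 after scaling to a common upper quartile. H19 ranked 3 among the 11149 genes at Day -2, Igf2 ranked 20, and Igf2r ranked 1314. At Day 60, 8 of the 10 genes had a mean under 1 FPKM and passed the filter on low values only through the ages at which they were high, so the count of 10 is a description; of all 3056 genes that were tested and under 1 FPKM at Day 60, 80.3% were higher at Day -2.

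Between groups of ages all 10 genes were called in the same order, younger above older. These are means over ages, and single ages did not all follow this order. Igf2, for one, had a mean of 396 FPKM at Day 10, against 209 FPKM at Day -2 and 427 FPKM at Day 1. Days -2 to 5 were higher than Days 25 to 60 for 10 of the 10 (70.2% of genes tested were, and 93.1% of the 3056 with a mean under 1 FPKM at Day 60), Days 10 to 20 were higher than Days 25 to 60 for 10 (44.9%), and Days -2 to 5 were higher than Days 10 to 20 for 10 (61.2%). In these comparisons 15.5%, 12.4% and 14.6% of genes tested were lower. The first difference was largest for H19, 9.78 ± 0.13 (SE) on the log2(FPKM + 1) scale, and Igf2, 7.86 ± 0.18, and smallest for Igf2r, 1.01 ± 0.12 (adjusted p = 8.20e-31, 1.52e-25 and 7.61e-09, limma). For 9 genes, all but Igf2r, every one of the 15 mice of Days -2 to 5 was above every one of the 12 mice of Days 25 to 60, as was the case for 33% of all genes tested. As 8 of the 10 members passed the filter only through the ages at which they were high, this count is a description. The share among the 3056 genes under 1 FPKM at Day 60 was not computed. The difference of Igf2r between Days -2 to 5 and Days 10 to 20 (0.46 ± 0.13, adjusted p = 0.00223) was lost without the fetal age (0.21, adjusted p = 0.177) and with common upper quartile scaling (0.11, adjusted p = 0.442).

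The falls of the 10 genes, like those of all genes tested, were not spread evenly over the 11 steps between neighbouring ages. The members were chosen as genes shut down after birth, so their counts of falls are descriptions. At birth and from Day 5 to Day 10 these counts were near the share of all genes tested. At birth (Day -2 to Day 0) 5 genes fell, Meg3, Plagl1, Cdkn1c, Mest and Igf2r (41.4% of genes tested fell), and H19 rose (13.1% rose). Dlk1 and Cdkn1c fell from Day 0 to Day 1 (7.88%), and Dlk1 alone fell from Day 1 to Day 3 (3.09%) and from Day 3 to Day 5 (2.12%). From Day 5 to Day 10 the falls were those of Dlk1, Plagl1, Grb10 and Mest (34.4%). From Day 10 to Day 15, 7 genes fell, Igf2, Dlk1, Meg3, Plagl1, Cdkn1c, Grb10 and Mest, when 10.5% of genes tested fell. H19, Igf2, Cdkn1c and Mest fell from Day 15 to Day 20, when 1.16% of genes did, and H19, Igf2, Cdkn1c and Grb10 from Day 20 to Day 25, when 3.26% did. H19 alone fell from Day 25 to Day 30 (0.807%), and none of the 10 was called at the 2 later steps (0.798% and 0.0628% of genes tested fell), where limma gave an unadjusted p under 0.05 to 2 genes, H19 and Mest, from Day 30 to Day 45 and to 0 genes from Day 45 to Day 60. Over all steps there were 29 falls and 1 rise, and the share of genes tested that rose at the 10 steps after birth was 23.7%, 8.22%, 1.09%, 1.88%, 1.52%, 0.834%, 3.94%, 0.834%, 0.233% and 0.17%. Adding 1 FPKM shrinks further falls of a gene already under 1 FPKM, so these could hardly be called. Fewer cells of a type and less RNA per cell cannot be told apart in whole liver.

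**Figure D3:**
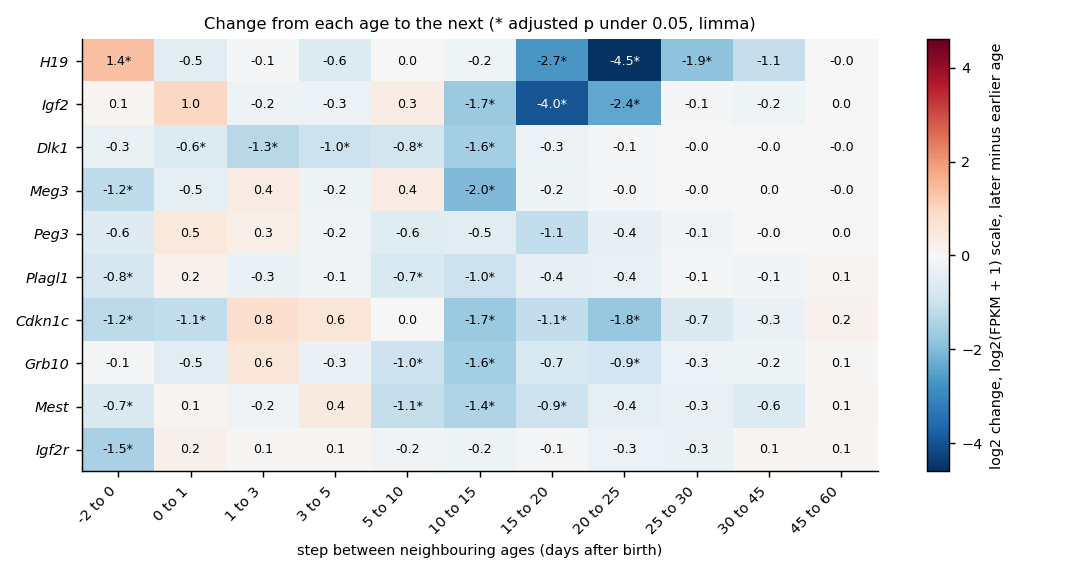
Change of each gene from one age to the next (log2(FPKM + 1) scale, later minus earlier age, 3 mice per age; blue is a fall, red a rise, and a star marks an adjusted p under 0.05 by limma). The column from Day 10 to Day 15 holds 7 starred falls, and the deepest cell is that of H19 from Day 20 to Day 25, -4.53. Falls of genes already under 1 FPKM are understated on this scale.

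The partners of a pair did not fall in step. In FPKM, H19 was 6.72 to 11.2 times Igf2 in the 3 mice at Day -2, 16.4 to 24 times at Day 0 and 4.19 to 5.52 times at Day 10. The ratio was 7.97 to 24.6 at Day 15 and 35.7 to 47.5 at Day 20, where all mice were above all mice of every earlier age, with Igf2 at 1.5% of its highest mean and H19 at 6.16%. At Day 60 both were under 1 FPKM and the ratio was 0.729 to 3.77. Dlk1 was 2.44 to 11.9 times Meg3 at Day -2, 8.68 to 17.1 times at Day 0 and 1.64 to 2.29 times at Day 5. At Day 10 it was 0.329 to 1.82 times Meg3, with Meg3 the higher in 2 of the 3 mice, and at Day 15 it was 0.667 to 3.6 times Meg3, with Dlk1 the higher in 2 of the 3. The longest transcript has 14548 bases for Meg3 and 4653 for Dlk1. The ratio of 0.329 was in replicate 1, with the highest long transcript deviation of all libraries (0.29). In replicate 3 the ratio was 0.688 and that deviation -0.17. The part of transcript length was not tested. Igf2 was 21.9 to 37.5 times its receptor Igf2r at Day -2 and 143 to 197 times at Day 1. The ratio was 143 to 168 at Day 10 and 2.91 to 4.14 at Day 20, and from Day 25 on Igf2r was the higher of the pair in all 12 mice, with a ratio of 0.0938 to 0.675.

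Over age means, the log2 ratio (both values + 1 FPKM) of Igf2r to Igf2 was -6.11 at Days -2 to 5 and 0.74 at Days 25 to 60, a difference of -6.85 (adjusted p = 0.0238, two-sided exact permutation test, 5 against 4 age means, Benjamini-Hochberg over 3 ratios). That of Meg3 to Dlk1 was -2.32 and 0.03, a difference of -2.35 (exact permutation test, adjusted p = 0.0238). The raw p of both, 0.0159, is the smallest this design can give. The ages are ordered points of 1 course and not independent repeats, so any steady trend over age gives this p. The groups of ages follow those the study found by clustering energy metabolism genes of the same libraries. That of H19 to Igf2 was 3.17 and 1.24, a difference of 1.93 that missed the threshold (exact permutation test, adjusted p = 0.0635). This call depends on how a two-sided p is formed: the main test doubled the smaller tail, and counting splits with an absolute difference at least as large, the definition run first and replaced by the doubled tail after its values were seen, gave an adjusted p of 0.0317 (exact permutation test) for H19 to Igf2 and the same calls for the other ratios. At the late ages, apart from H19 at Day 25, the partners H19 and Igf2, and Dlk1 and Meg3, were near or under 1 FPKM. There, adding 1 FPKM draws the log2 ratio towards 0. With 0.1 FPKM added the H19 to Igf2 difference was 0.87 (exact permutation test, adjusted p = 0.286).

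**Figure D4:**
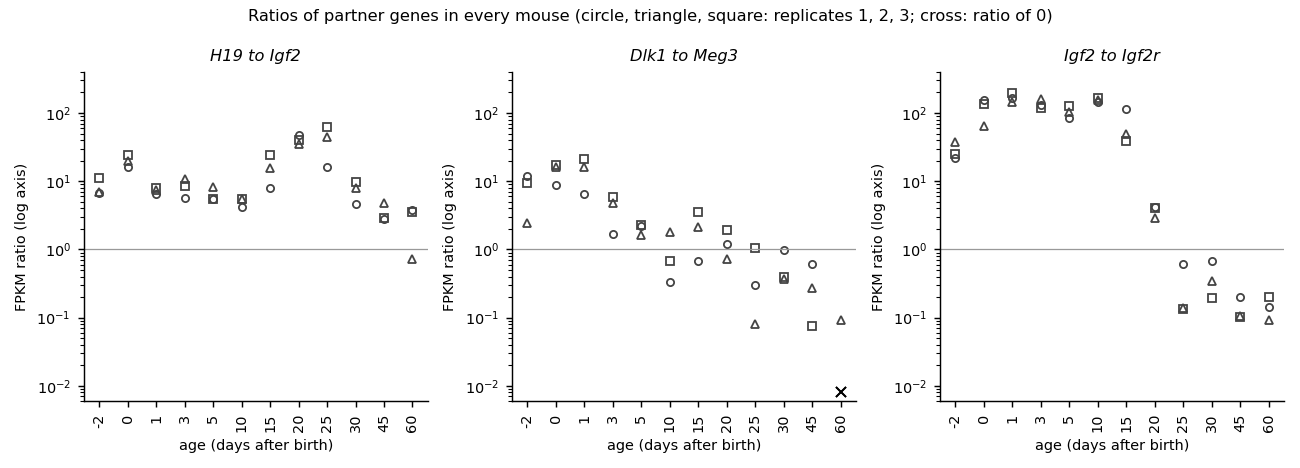
Ratio of FPKM values of 2 partner genes (log axis) in each of 36 mice by age in days, with 1 symbol per mouse, a cross for a ratio of 0 (drawn at the foot of the axis) and a line at a ratio of 1. H19 to Igf2 had its highest values at Days 20 and 25, Dlk1 to Meg3 at Days 0 and 1, and Igf2 to Igf2r crossed 1 between Day 20 and Day 25.

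Other imprinted genes were called in both directions. Of 49 listed, 31 passed the filter, and at Day -2 against Day 60, 15 were higher, 8 were lower and 8 did not pass the test, with a median of 0.43 on the log2(FPKM + 1) scale against 0.56 over all genes tested (56.4% higher and 18.6% lower). With common upper quartile scaling the split was 10 higher and 9 lower, and the shares of all genes were not computed with that scaling. The 5 largest changes were those of Phlda2, a placental growth restraint of the Cdkn1c cluster (3.82 ± 0.21 SE, 15.6 FPKM at Day -2 and 0.168 FPKM at Day 60), Nnat, a membrane proteolipid (3.67 ± 0.20), and Rian, the noncoding RNA next to Meg3 (3.16 ± 0.24), which were higher in the fetus, and of Slc38a4, an amino acid transporter (-2.90 ± 0.26, 24.1 FPKM and 184 FPKM at the same ages), and Ddc, the aromatic amino acid decarboxylase (-2.51 ± 0.22), which were lower (adjusted p from 5.01e-16 to 4.36e-11, limma).

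Of 18 genes of the IGF axis other than the members, 16 were tested. At Day -2 against Day 60, 6 were higher, 5 were lower and 5 did not pass, with a median of 0.09. Of all genes tested, 56.4% were higher and 18.6% lower there. Between Days -2 to 5 and Days 25 to 60, 10 were higher and 5 lower, when 70.2% and 15.5% of genes tested were. With common upper quartile scaling the split was 6 and 5, and the shares of all genes were not computed with that scaling. Igf1, the postnatal growth factor, was at 1.90 ± 0.155 FPKM (SD, n = 3) at Day -2, 34.9 ± 4.6 FPKM at Day 10 and 80.0 ± 13.8 FPKM at Day 60 (-4.79 ± 0.14 SE, Day -2 minus Day 60 on the log2(FPKM + 1) scale, adjusted p = 3.27e-22, limma). Ghr, the growth hormone receptor, was lower at Day -2 by the same test (-3.76 ± 0.15), as were Igfals, the acid-labile subunit that keeps IGFs in the blood (-3.55 ± 0.20), and Igfbp2, an IGF-binding protein (-7.10 ± 0.32; 2.11 FPKM at Day -2, 2235 FPKM at Day 10 and 432 FPKM at Day 60). Igfbp1, another binding protein, was higher at Day -2 than at Day 60 (3.00 ± 0.41) and stood at 762 ± 193 FPKM at Day 0 and 1090 ± 165 FPKM at Day 3. In mean level Igf1 was below Igf2 at Day 15, at 53.1 against 150.8 FPKM, and above it at Day 20, at 51.7 against 6.40 FPKM. The Day 15 mice differed: Igf2 was at 301, 103 and 48.2 FPKM, against 52.1 to 53.9 FPKM for Igf1. In replicate 3 of that age Igf2 was thus already the lower.

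A list of 4 regulators or targets of the postnatal repression of fetal liver genes was also read. Afp, the fetal serum protein that shares this repression with H19, stood at 3601 ± 180 FPKM (SD, n = 3) in the fetus, 11497 ± 2930 FPKM at Day 0 and 11125 ± 1424 FPKM at Day 5. It was at 4730 ± 963 FPKM at Day 10, 279 ± 246 FPKM at Day 15 and 32.3 ± 19.6 FPKM at Day 20, and at 0.906 ± 0.592 FPKM in the adult (10.93 ± 0.57 SE, Day -2 minus Day 60 on the log2(FPKM + 1) scale, adjusted p = 2.19e-16, limma). Gpc3, a cell surface proteoglycan and another target, had a mean of 22.3 FPKM in the fetus, 9.66 FPKM at Day 20 and 0.0849 FPKM in the adult. Zhx2, a repressor of both, was lower at Day -2 than at Day 60 (-0.69 ± 0.10 SE on the log2(FPKM + 1) scale, adjusted p = 3.89e-07, limma), at 0.313 against 1.13 FPKM. Zhx2 passed the filter on low values only through Day 60, its highest age, with means of at most 0.832 FPKM at the others. Afp and Gpc3 were under 1 FPKM at Day 60 and passed it only through younger ages. These calls are therefore descriptions. Zbtb20, a repressor of Afp, did not pass the filter and was listed at 0.0710 FPKM at Day -2 and 0.582 FPKM at Day 60.

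**Figure D5:**
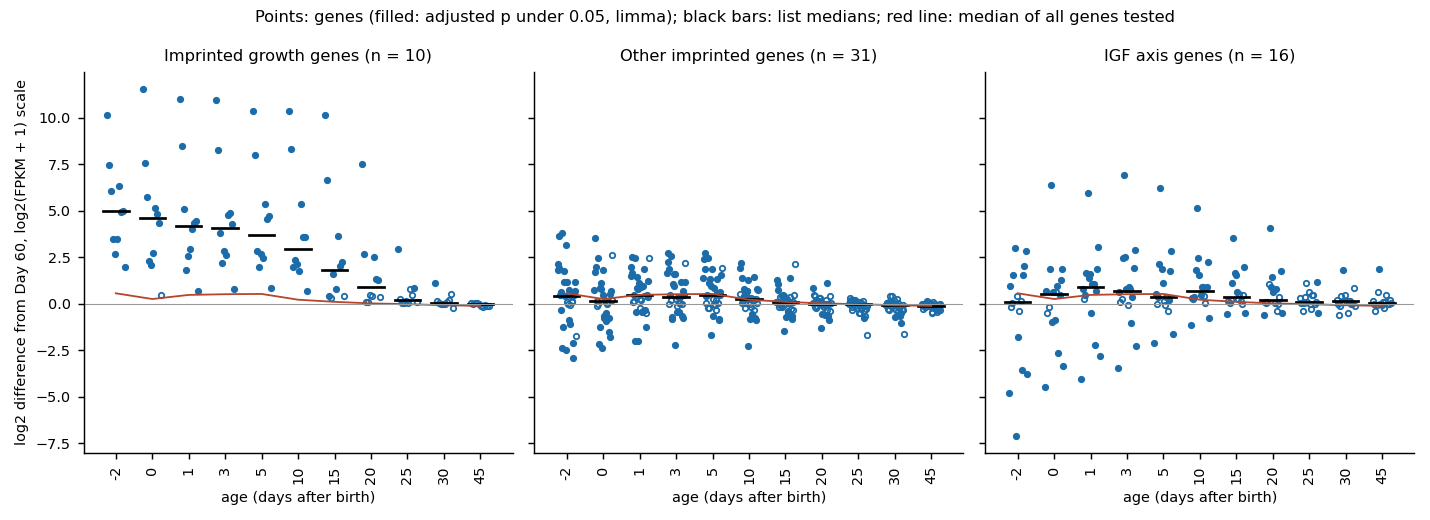
Difference of each gene from Day 60 (log2(FPKM + 1) scale) by age in days for the 10 imprinted growth genes, 31 other imprinted genes and 16 IGF axis genes, with filled points for an adjusted p under 0.05 (limma), black bars for list medians and a red line for the median of all genes tested. The median of the 10 genes was 4.97 at Day -2, 2.97 at Day 10 and 0.89 at Day 20, while the medians of the other lists stayed within 1 of 0. The 10 genes were chosen as genes shut down after birth, so this contrast is a description.

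The genes whose course was most like that of a member, by Pearson's r over the 12 age means of log2(FPKM + 1) among 11139 other genes, differed between members. For H19 they were Col5a1 (r = 0.995), Col1a2 and Col1a1, which are fibrillar collagens, and for Igf2 they were Mfap2 (r = 0.987), a microfibril protein, Pamr1 and Col5a2. For Dlk1 they were Tmem40 (r = 0.992), Treml2 and Rcor2, for Meg3 Arhgef25 (r = 0.975), Pld3 and its neighbour Rian (r = 0.971), and for Cdkn1c Pygb (r = 0.985), Dgkz and Prkab1. The likest gene of Grb10 was Ndn (r = 0.999), a paternally expressed imprinted gene, followed by Sept6 and Obsl1. For Mest they were Ngfrap1 (r = 0.997), Nt5c3l and Tspan6, for Plagl1 Abcc5 (r = 0.995), Bex1 and Zcchc3, for Peg3 Abl1 (r = 0.990), Atp8b2 and 2810408M09Rik, and for Igf2r Sh3yl1 (r = 0.987), Fmr1 and Smc1a. Such values were common: 42 genes were above 0.95 for H19 and 1563 for Plagl1. Among the 10 members themselves r ranged from 0.708 (H19 with Igf2r) to 0.992 (Grb10 with Mest), with a median of 0.909 over 45 pairs. The 12 points share the same libraries and the same overall decline with age.

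Markers of several cell types moved over the same ages. The summed level of the 7 erythroid markers found in the table (of 8 listed) was 110104 to 157531 FPKM at Day -2 and 571 to 612 FPKM at Day 60, and that of 6 cell division genes was 240 to 334 FPKM and 0.745 to 1.13 FPKM. For 8 stellate and mesenchymal markers, which include Col1a1 and Col1a2, the fetal mice had sums of 100.1 to 117 FPKM, the Day 10 mice of 141 to 207 FPKM, the Day 20 mice of 70.9 to 79.5 FPKM and the Day 60 mice of 17.9 to 29.3 FPKM. The 5 biliary and progenitor markers had sums of 5.22 to 10.2 FPKM in the fetal mice, 15.9 to 35.8 FPKM in the Day 1 mice, where their mean was highest, 13.8 to 23.5 FPKM in the Day 5 mice and 4.48 to 9.17 FPKM in the Day 60 mice. The 6 endothelial markers summed to 33.9 to 52.1, 65.6 to 76.3 and 23.6 to 27.2 FPKM in the fetal, Day 5 and Day 60 mice, and the 5 macrophage markers to 71.6 to 76.3, 131 to 167 and 42.2 to 54.5 FPKM, both with their highest mean at Day 5. No marker of these 6 lists was listed at 0 in all 3 mice of any age. The part of cell composition in the course of the 10 genes was not tested.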

How the data were processed

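RNA-Seq libraries of polyadenylated RNA from 36 mouse livers were analysed. According to the submitters' processing notes, the authors used TopHat (1.2.0) and Cufflinks (1.0.3) on mm9 and deposited 1 FPKM value per gene and mouse. The FPKM values hold no depth of each library, although the study gives an average number of reads per sample. The rough depth above rests on 465 genes with a value in 1 library and was not set beside that average. Groups were taken from the sample labels. FPKM were tested as log2(FPKM + 1), so fold changes of low genes are understated, with limma (3.58.1, R 4.3.3): 1 mean per age over 36 mice, variances moderated with a mean-expression trend, and Benjamini-Hochberg adjustment within each comparison over the 11149 genes whose mean reached 1 FPKM at some age (threshold 0.05). Each age was compared with Day 60 and with the age before it, and 3 groups of ages with each other. Ratios of partners were tested by exact permutation of age means (scipy 1.17.1). The fit was tested on simulated data. Alternatives were another pseudocount (0.1 FPKM), other filters, common upper quartile and TPM scaling, a replicate block and leaving out each library. The 6 libraries and the length trend were chosen after seeing the data, as was the doubled-tail form of the exact p, which replaced one from absolute differences. Positions are from GENCODE (mm9), and sequences from RefSeq. Named genes were the 10 members, the 3 likest genes of each, the 5 largest called changes of each of 2 lists at Day -2 against Day 60, and the 4 repression genes. The members and lists were chosen with earlier results of these data known.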

Additional observations from a re-analysis of the deposited data

How the results depend on the processing

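Of the counts of members called against Day 60, those before Day 15 stayed within 1.5 times under every alternative run. At Day 25 the count of 2 became 4 with a pseudocount of 0.1 FPKM and 1 without the 6 libraries high in muscle or pancreas markers. Leaving out 1 library gave 5 to 8 genes at Day 15, 1 to 3 at Day 25 and 0 to 1 at Day 30. The 1 rise over neighbouring steps became 1 to 2 when 1 library was left out, 2 with a filter at 5 FPKM or without the 6 libraries, and 3 with the length trend removed. Other imprinted genes called higher became 24 (Day -2) and 34 (Days -2 to 5) with no filter, and IGF axis genes 3 and 5 with a filter at 5 FPKM and, for Days -2 to 5, 6 with common upper quartile scaling. The filter sets how many list genes are tested, 31 and 16 with the main settings. The counts under another filter therefore have another base, and shares of all genes were not computed for these settings. The H19 to Igf2 ratio difference was 1.88 to 1.98 without 1 library, passing the threshold without any 1 of 4 (adjusted p = 0.0476, exact permutation test), and the unchanged 1.93 passed with p from absolute differences. Without Day 25 replicate 1, 5 uncalled differences between Days 25 and 60 turned sign, and leaving out 1 library gave -0.016 to 0.41 for Igf2, -0.0032 to 0.050 for Meg3, -0.0092 to 0.23 for Peg3, -0.024 to 0.13 for Plagl1 and -0.033 to 0.21 for Igf2r. The causes were not tested.

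Same-numbered mice of different ages deviated together in 104 of 198 pairs (correlation over 0.1, from -0.680 to 0.829), with a median of 0.126 against -0.048 for different numbers, and 19 of 36 libraries had their highest mean correlation with their own number, 12 being the share of 1 number in 3. Libraries of the same number thus shared part of their deviation, and replicate 1 was highest in long transcripts in 6 of the 7 ages from Day -2 to Day 15. The source of this was not tested. As not every pair was over 0.1, the numbers were not taken to pair the mice, and the replicate block was run only as an alternative. With the replicate block the rises became 2 (Igf2 from Day 0 to Day 1, adjusted p = 0.0191, limma), the 29 falls became 30, and no member's call against Day 60 changed. Values far below 1 FPKM rest on few fragments, which limits Dlk1 and Meg3 after Day 20.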
